A study of Mus musculus with 9 samples.

Results

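The genes described are 9 Toll-like receptor genes and the co-receptor gene Cd14, 10 of the 24607 genes in the deposited table. They were chosen by symbol and split by the textbook site of the protein: Tlr1, Tlr2, Tlr4, Tlr6 and Cd14 at the cell surface, and Tlr3, Tlr7, Tlr8, Tlr9 and Tlr13 in endosomes. Their RNA was measured in mouse macrophages grown from bone marrow and kept with sensory neurons from the dorsal root ganglion (DRG), with transforming growth factor beta (TGF-β) at 0.02 ng/ml, or alone. Each condition had 3 libraries. All 9 came from CX3CR1-gfp/+ cells, which carry green fluorescent protein at 1 copy of the fractalkine receptor gene. All were differentiated with 50 ng/ml of the macrophage growth factor M-CSF, carried a time label of 5 days and were sorted on CD11b and CD64. The design text names 3 mice as the source. Whether each mouse served every condition, and which other cells the DRG cultures held, is not stated.

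Toll-like receptors are membrane proteins with which macrophages recognise conserved molecules of microbes. Those at the surface bind lipoproteins (Tlr2 paired with Tlr1 or Tlr6) and endotoxin (Tlr4, to which Cd14 hands its ligand), and those in endosomes bind RNA or DNA taken up by the cell. All but Tlr3 signal through the adaptor Myd88, Tlr3 and Tlr4 signal through Ticam1, and the pathways lead to NF-kappaB and to interferon regulatory factors.

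In co-cultured macrophages the genes moved apart within both sites. At the surface the lipoprotein receptors Tlr2 and Tlr1 rose 2.30-fold and 1.65-fold over monoculture (ratio of means), while Cd14 and Tlr4, which act in endotoxin recognition, fell to 0.480 and 0.759 of their monoculture means. In endosomes the nucleic acid receptors Tlr9, Tlr7 and Tlr8 rose 1.64-fold, 1.37-fold and 1.25-fold, and Tlr13, the most abundant of the 5 per length, fell to 0.812. Tlr6 and Tlr3 were not called. The calls of Tlr4, Tlr8 and Tlr13 were lost when certain single libraries were left out, as given below. With TGF-β the test called Tlr2 alone, at 1.64-fold of monoculture.

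Values are gene reads divided by 1 factor per library, called normalized counts below, and the co-culture libraries held 133.8 to 308.8 M reads (M, 1e6), the TGF-β libraries 46.8 to 151.6 M and the monoculture libraries 73.4 to 135.6 M. The 9 macrophage markers searched took 1.13 to 1.50% of counts in co-culture, 1.08 to 1.20% under TGF-β and 0.918 to 0.984% in monoculture, and none was at 0 in any group. Of these, Mertk, Lyz2 and Tyrobp rose and Emr1 fell in co-culture. Of 15 fibroblast markers, 13 were tested and all 13 rose in co-culture. Just 3 of them passed the filter on low values outside co-culture. Their summed level was 7642 to 10976 in co-culture, against 27.1 to 131 under TGF-β and 51.1 to 146 in monoculture. Dcn, Lum, Mfap5 and Thy1 were at 0 with TGF-β, and Lum, Pdgfra, Mfap5 and Thy1 in monoculture. Of 12 Schwann and satellite glia markers, 8 rose and 3 fell in co-culture, where 15.9% of all genes tested rose and 15.0% fell. Just 5 of the 12 passed the filter on low values outside co-culture. The 12 markers summed to 5417 to 6137 in co-culture, 6245 to 6983 under TGF-β and 6972 to 8258 in monoculture. Sox10, Ngfr and Ncam1 were at 0 with TGF-β, and Ngfr and Cdh19 in monoculture. The 11 sensory neuron markers in the table summed to 113 to 212 in co-culture, 15.9 to 40.6 under TGF-β and 19.6 to 74.7 in monoculture, and Trpv1, Nefm and Snap25 were at 0 in both groups without neurons. The 6 monocyte markers summed to 1049 to 1586 in co-culture, 430 to 570.3 under TGF-β and 189 to 205 in monoculture, and the 8 dendritic cell markers in the table to 4227 to 5318, 3888 to 4521 and 2730.4 to 3553. Of 5 endothelial markers in the table, Pecam1 and Cdh5 rose and Kdr fell in co-culture, and Kdr fell with TGF-β. They summed to 1610.1 to 2197 in co-culture, 1166 to 1336 under TGF-β and 1996 to 2453 in monoculture, with Emcn at 0 with TGF-β and Tek in monoculture. The 7 neutrophil markers in the table summed to at most 81.3 in any library and the 2 lymphocyte markers to at most 18.4. The part of other cells in the differences of the receptor genes was not tested. In bulk libraries of this kind, fewer cells of a type and less RNA per cell cannot be told apart.

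Sequence is shown for the genes whose differences carry the result. Tlr1 (ENSMUSG00000044827, chr5:64924679-64933563, minus strand, mm10) and Tlr6 (ENSMUSG00000051498, chr5:64952031-64960097, minus strand) are neighbours that share coding sequence. The longest identical run, of 229 bases, lies in exon 4 of 4 of Tlr1 (chr5:64925537-64925765) and exon 2 of 2 of Tlr6 (chr5:64953828-64954056). It is printed on the coding strand because a read inside it fits both genes.
Tlr1 and Tlr6, shared coding run: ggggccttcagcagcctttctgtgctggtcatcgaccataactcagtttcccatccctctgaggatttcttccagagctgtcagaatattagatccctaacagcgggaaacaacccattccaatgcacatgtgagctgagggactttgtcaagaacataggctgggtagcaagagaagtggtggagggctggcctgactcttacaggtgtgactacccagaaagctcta
Of the 31-base words of the main transcripts, 20.1% of those of Tlr1 and 16.6% of those of Tlr6 were shared, so the pair shares further identical runs, and in any other pair of the 10 genes the longest identical run was 18 bases. How reads from such runs were assigned is not stated. Tlr6 did not move with Tlr1, as its values below show, and the part of shared reads in the values of either gene was not tested.

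RefSeq promoters (GRCm38.p6) were found for 7 of the 10 genes, in 9 windows of 250 bases before and 50 after a start. The 250 bases before the start are printed for Tlr2 (chr3:83841609-83841858, minus strand) and the first start of Tlr1 (chr5:64933559-64933808, minus strand), which rose at the surface. They follow for Tlr9 (chr9:106222348-106222597, plus strand), the endosomal receptor gene with the largest rise, and Tlr13 (chrX:106143025-106143274, plus strand), the one that fell. Capitals mark every match to the motifs searched.
Tlr2: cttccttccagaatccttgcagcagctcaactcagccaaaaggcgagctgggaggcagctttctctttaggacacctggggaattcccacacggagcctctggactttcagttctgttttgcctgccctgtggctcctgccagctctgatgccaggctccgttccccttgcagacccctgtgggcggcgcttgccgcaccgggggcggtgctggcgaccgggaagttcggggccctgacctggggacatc
Tlr1: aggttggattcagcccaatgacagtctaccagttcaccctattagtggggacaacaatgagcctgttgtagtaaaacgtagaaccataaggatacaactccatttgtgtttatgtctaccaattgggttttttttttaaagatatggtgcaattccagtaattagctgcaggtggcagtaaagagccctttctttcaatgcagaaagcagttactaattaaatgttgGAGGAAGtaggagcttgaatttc
Tlr9: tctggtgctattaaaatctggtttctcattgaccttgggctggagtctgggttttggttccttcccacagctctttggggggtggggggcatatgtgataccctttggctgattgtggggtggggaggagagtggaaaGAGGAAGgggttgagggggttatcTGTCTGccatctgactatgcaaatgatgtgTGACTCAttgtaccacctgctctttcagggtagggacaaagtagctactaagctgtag
Tlr13: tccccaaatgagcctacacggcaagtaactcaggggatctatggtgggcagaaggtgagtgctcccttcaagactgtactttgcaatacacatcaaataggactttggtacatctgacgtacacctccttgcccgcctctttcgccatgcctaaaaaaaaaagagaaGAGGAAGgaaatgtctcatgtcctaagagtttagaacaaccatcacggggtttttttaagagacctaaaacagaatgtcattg
The letters GAGGAAG, a core of the macrophage factor PU.1, began at -23 in Tlr1, at -112 in Tlr9 and at -83 in Tlr13, counted from the start, and Tlr9 also held their reverse complement at 11 after the start, outside the printed bases. They stood in 3 of the 9 windows, and in 13.6% of 32851 promoters on either strand, so both a gene that rose and the one that fell held them. Tlr9 also held TGTCTG, the reverse complement of the SMAD word CAGACA, at -88 and the AP-1 word TGACTCA at -58. CAGACA or its reverse complement stood in 3 windows and in 21.04% of all promoters, and TGANTCA in 1 window and 7.81%. A strict NF-kappaB word of 10 letters and the SMAD palindrome GTCTAGAC were in none of the 9 windows and in 0.155% and 0.213% of all promoters. A looser NF-kappaB word stood in the Tlr3 window alone (1.47% of all promoters), and a word of the interferon response element in 1 Tlr6 window, in overlapping copies on the reverse strand (3.44%). The printed Tlr2 window held none of the motifs as spelled in the search. Its bases include a run close to the looser NF-kappaB word, which the search did not match. Other spellings of NF-kappaB sites were not searched, so whether Tlr2 holds such a site was not tested.

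**Figure D1:**
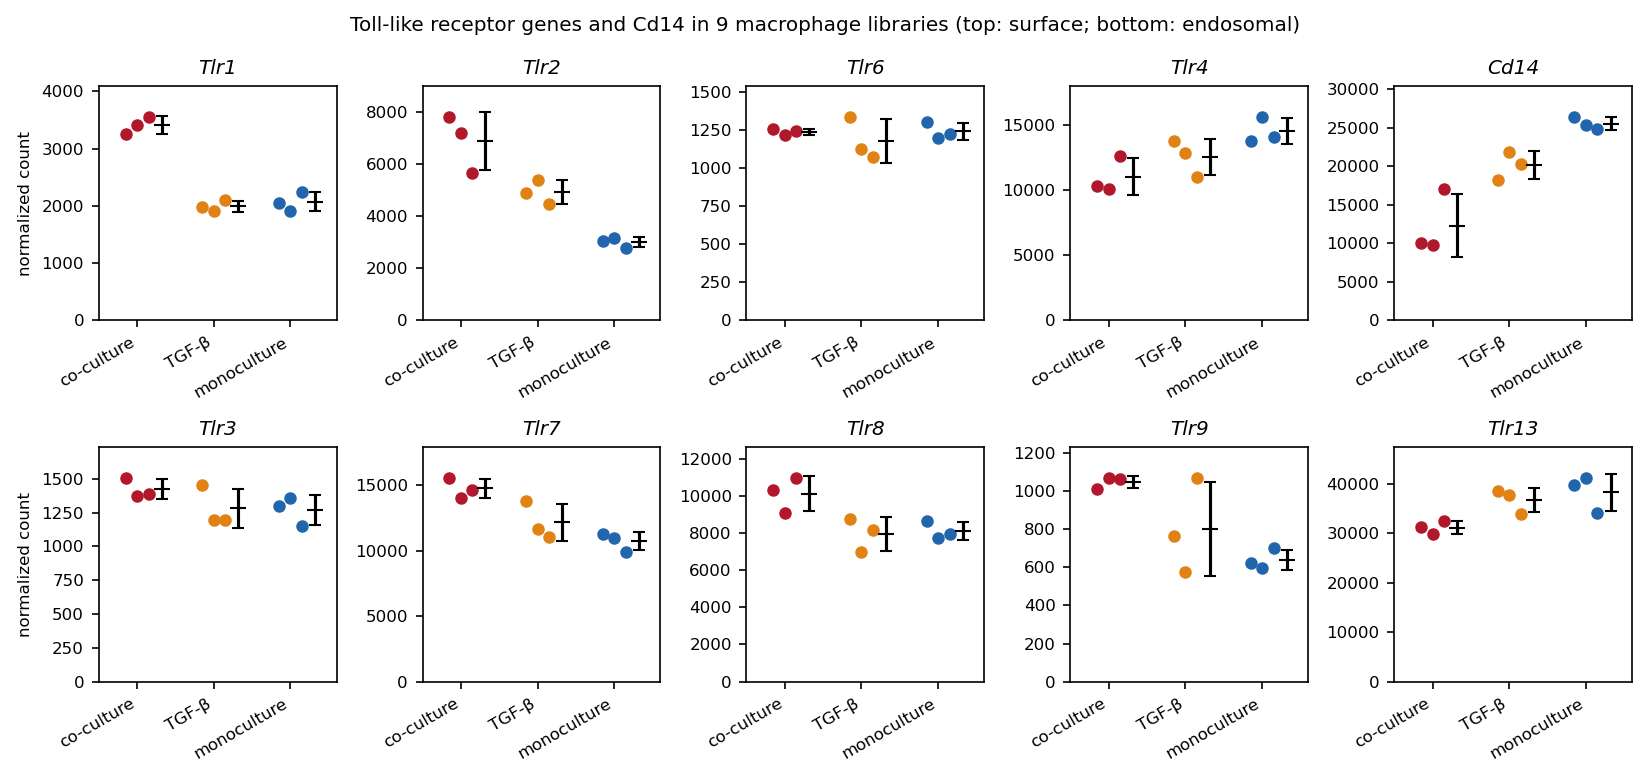
Normalized counts of the 10 genes by library, with surface genes above and endosomal genes below. Points are libraries and bars are the mean ± SD of 3; the co-culture points of Tlr1, Tlr2 and Tlr9 stand above all monoculture points and those of Cd14, Tlr4 and Tlr13 below them.

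Of the 10 genes, 5 rose and 3 fell in co-culture against monoculture, where 30.8% of the 16328 genes tested were called (15.9% higher and 15.0% lower). The groups did not overlap for 9 of the 10, against 45.0% of all genes tested. The shares depend on level: among the 8730 genes with a mean at or above that of the lowest of the 10, Tlr9 at 830.0 normalized counts, 35.1% were called. The median log2 difference was 0.24 over the 10 genes and 0.03 over all genes tested. By site, 2 surface genes rose and 2 fell (median -0.00), and 3 endosomal genes rose and 1 fell (median 0.32). All 10 passed the filter on low values in the libraries outside co-culture too. Without monoculture 2, 5 genes were called, 4 higher and 1 lower.

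Tlr2 (ENSMUSG00000027995, chr3:83836272-83841767, minus strand) encodes the shared subunit of the lipoprotein receptors and had the largest rise among the 10. It had 7841, 7198 and 5669.7 normalized counts in co-culture, 4907, 5399.6 and 4470.0 with TGF-β, and 3057, 3162 and 2793 in monoculture. The 3 groups did not overlap, with co-culture highest and TGF-β between. The log2 difference was 1.19 ± 0.11 (estimate ± SE) for co-culture against monoculture (limma, Benjamini-Hochberg adjusted p = 2.09e-06). For TGF-β against monoculture it was 0.71 ± 0.11 (limma adjusted p = 0.00425), and for co-culture against TGF-β 0.48 ± 0.11 (limma adjusted p = 0.00697). All 3 calls held in every alternative run, with adjusted p of at most 3.53e-05, 0.0327 and 0.0454. The summed monocyte markers given above had the same order of groups, and their part in the result was not tested. Of that list, F13a1 rose in co-culture, and Ccr2 and F13a1 rose with TGF-β.

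Tlr1, the partner of Tlr2 for triacylated lipoproteins, had 3262, 3416 and 3561 normalized counts in co-culture, 1984, 1903 and 2095 with TGF-β, and 2054, 1911 and 2244 in monoculture. The co-culture libraries stood above all 6 others, and the other groups overlapped. Its log2 difference was 0.72 ± 0.09 against monoculture (limma adjusted p = 2.41e-05) and 0.77 ± 0.09 against TGF-β (limma adjusted p = 1.92e-05). Between TGF-β and monoculture it was -0.05 (95% interval -0.24 to 0.14; limma adjusted p = 0.862). Tlr1 was thus called in the contrasts with co-culture and not in the one between TGF-β and monoculture, unlike Tlr2, which was called in all 3.

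Tlr6, the partner of Tlr2 for diacylated lipoproteins, had 1257, 1217 and 1243 normalized counts in co-culture, 1340.0, 1125 and 1070.35 with TGF-β, and 1305, 1198 and 1225 in monoculture. All groups overlapped. The log2 difference between co-culture and monoculture was -0.00 with a 95% interval of -0.23 to 0.23 (limma adjusted p = 0.985). Against TGF-β the co-culture value was 0.08 (95% interval -0.15 to 0.31). Per kilobase of exon, Tlr1 exceeded Tlr6 by 2.89 to 3.19 times in co-culture libraries, 1.65 to 2.18 times with TGF-β and 1.75 to 2.04 times in monoculture. The balance between the partners of Tlr2 differed between co-culture and both other groups without overlap. The exon lengths used include the runs shared by Tlr1 and Tlr6, and the effect of these runs on the ratio was not tested.

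Tlr4 (ENSMUSG00000039005, chr4:66827584-66930284, plus strand), the endotoxin receptor, had 10347, 10114 and 12668 normalized counts in co-culture, 13761, 12882 and 11015 with TGF-β, and 13818, 15679 and 14129 in monoculture. Every monoculture library stood above the 6 others, and co-culture overlapped with TGF-β. It fell by 0.40 ± 0.11 on the log2 scale in co-culture against monoculture (limma adjusted p = 0.00980). Without co-culture 2 or monoculture 2 the adjusted p was 0.0540 and 0.0520, with differences of -0.34 and -0.35. For TGF-β against monoculture the difference was -0.22 (95% interval -0.44 to 0.01; limma adjusted p = 0.369), and for co-culture against TGF-β -0.19 (95% interval -0.41 to 0.04; limma adjusted p = 0.234).

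Cd14 (ENSMUSG00000051439, chromosome 18), which binds endotoxin and passes it to Tlr4, had the largest fall. It had 10045, 9779 and 16983 normalized counts in co-culture, 18251, 21867 and 20312 with TGF-β, and 26463, 25347 and 24805 in monoculture. The groups did not overlap, TGF-β lay between the others, and co-culture 3 stood well above the other co-culture libraries. The same library was the lowest of its group for Tlr2 and the highest for Tlr4. Cd14 fell by 1.11 ± 0.18 (log2) in co-culture against monoculture (limma adjusted p = 7.09e-04) and by 0.76 ± 0.18 against TGF-β (limma adjusted p = 0.00976). Without co-culture 3 the differences were -1.36 and -1.02. TGF-β against monoculture gave -0.35 (95% interval -0.74 to 0.05; limma adjusted p = 0.415).

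Within each library the surface receptors changed their proportions. Per kilobase, Tlr2 over Tlr4 was 1.40, 1.31 and 0.825 in co-culture 1 to 3, 0.657 to 0.773 under TGF-β and 0.364 to 0.408 in monoculture. The 3 ranges did not overlap, and Tlr2 exceeded Tlr4 in co-culture 1 and 2 and in no other library. Cd14 over Tlr4 was 3.10 to 4.30 in co-culture, 4.25 to 5.92 under TGF-β and 5.19 to 6.14 in monoculture. Tlr4 made up 32.2 to 41.0% of the summed level of the 4 surface Toll-like receptor genes in co-culture, 45.3 to 49.0% under TGF-β and 55.7 to 59.2% in monoculture. These ratios are descriptions without a test, since 3 libraries against 3 cannot give an exact permutation p under 0.1.

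**Figure D2:**
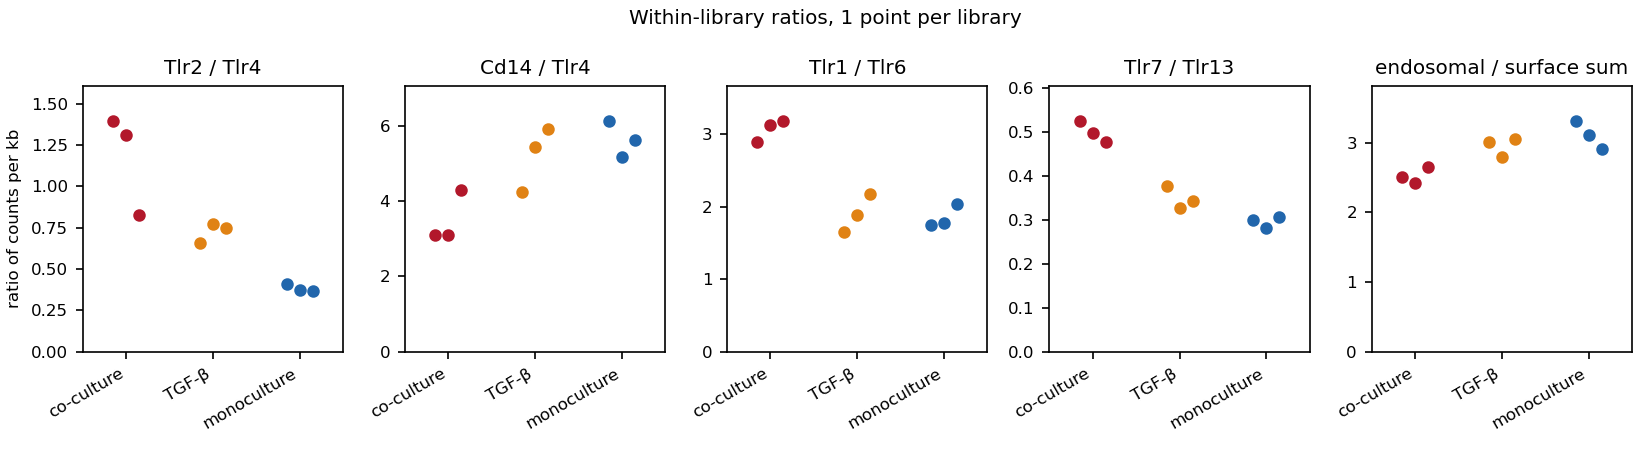
Ratios of levels per kilobase of exon within each library, 1 point per library, for 4 gene pairs and for the sum of 5 endosomal over 4 surface Toll-like receptor genes. Tlr2 over Tlr4 runs from 0.825 to 1.40 in co-culture and from 0.364 to 0.408 in monoculture; Tlr7 over Tlr13 is highest in co-culture and the endosomal over surface ratio lowest.

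Among the endosomal genes, Tlr9 (ENSMUSG00000045322, chr9:106222598-106226883, plus strand), the receptor for unmethylated CpG DNA, had 1010.3, 1069.7 and 1063 normalized counts in co-culture, 765, 575 and 1068 with TGF-β, and 622, 597 and 699.7 in monoculture. Co-culture stood above monoculture without overlap, and the TGF-β libraries spread over the range of both. It rose by 0.71 ± 0.18 (log2) over monoculture (limma adjusted p = 0.00720). The difference from TGF-β was 0.42 (95% interval 0.04 to 0.81; limma adjusted p = 0.100). Without TGF-β 3, the highest of its group, that difference was 0.65 and was called (limma adjusted p = 0.00449). TGF-β against monoculture gave 0.28 (95% interval -0.10 to 0.66; limma adjusted p = 0.510).

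Tlr7 (ENSMUSG00000044583, chrX:167304929-167330558, minus strand) encodes a receptor of single-stranded RNA and its breakdown products. Its neighbour Tlr8 (ENSMUSG00000040522, chrX:167242696-167264329, minus strand) encodes a related endosomal receptor, whose response to RNA in mouse cells was not examined here. Tlr7 had 15559, 14064.5 and 14654 normalized counts in co-culture, 13780.0, 11669 and 11033 with TGF-β, and 11294.5, 10983 and 9935 in monoculture. Every co-culture library exceeded the 6 others, and TGF-β overlapped with monoculture. Tlr7 rose by 0.46 ± 0.09 (log2) over monoculture (limma adjusted p = 0.00164) and by 0.28 ± 0.09 over TGF-β (limma adjusted p = 0.0384). The second call was close to the threshold. Leaving out any of co-culture 1, 2 or 3, TGF-β 2 or 3, or monoculture 2 took its adjusted p to between 0.0505 and 0.152, and testing without the filter or in the 2 groups alone took it to 0.0599 and 0.0520.

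Tlr8 had 10345, 9109 and 10979.8 normalized counts in co-culture, 8783, 6986 and 8172 with TGF-β, and 8654, 7731 and 7978 in monoculture. Co-culture again stood above both other groups, which overlapped. It rose by 0.32 ± 0.10 (log2) over monoculture (limma adjusted p = 0.0251) and by 0.35 ± 0.10 over TGF-β (limma adjusted p = 0.0190). Leaving out co-culture 1 or 3 or monoculture 2 or 3 ended the call against monoculture, with adjusted p of 0.0645 to 0.103. Leaving out co-culture 1 or 3 or TGF-β 2 ended the call against TGF-β, with adjusted p of 0.0703 to 0.0885. TGF-β against monoculture gave 0.18 for Tlr7 (95% interval -0.03 to 0.38) and -0.03 for Tlr8 (95% interval -0.24 to 0.18), and neither was called.

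Tlr13 (ENSMUSG00000033777, chrX:106143204-106160493, plus strand), which in mice detects bacterial ribosomal RNA, had 31199, 29767 and 32346 normalized counts in co-culture, 38489.5, 37721 and 33826 with TGF-β, and 39677, 41123 and 34066 in monoculture. Every co-culture library was below the 6 others, and these overlapped. Tlr13 fell by 0.30 ± 0.09 (log2) against monoculture (limma adjusted p = 0.0250), and the difference from TGF-β was -0.24 (95% interval -0.43 to -0.04; limma adjusted p = 0.0788). The call against monoculture was lost under quantile normalization (-0.19, adjusted p = 0.0726) and without any of co-culture 1 or 2 or monoculture 1 or 2 (adjusted p of 0.0714 to 0.108). The difference from TGF-β was called without TGF-β 3 (-0.29, limma adjusted p = 0.0325) and with DESeq2 on recovered reads (adjusted p = 0.0475).

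Tlr3 (ENSMUSG00000031639, chr8:45395665-45411080, minus strand), the receptor for double-stranded RNA, had 1506, 1374 and 1391 normalized counts in co-culture, 1451, 1197 and 1195 with TGF-β, and 1302, 1358 and 1149 in monoculture. Co-culture stood just above monoculture without overlap, but the log2 difference of 0.17 did not pass the test (95% interval -0.07 to 0.41; limma adjusted p = 0.299). For TGF-β against monoculture it was 0.01 (95% interval -0.23 to 0.25). Tlr3 was the 1 gene of the 10 with an antisense gene over its exons, Gm45542, which has no row in the table. Whether reads were counted by strand is not stated.

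**Figure D3:**
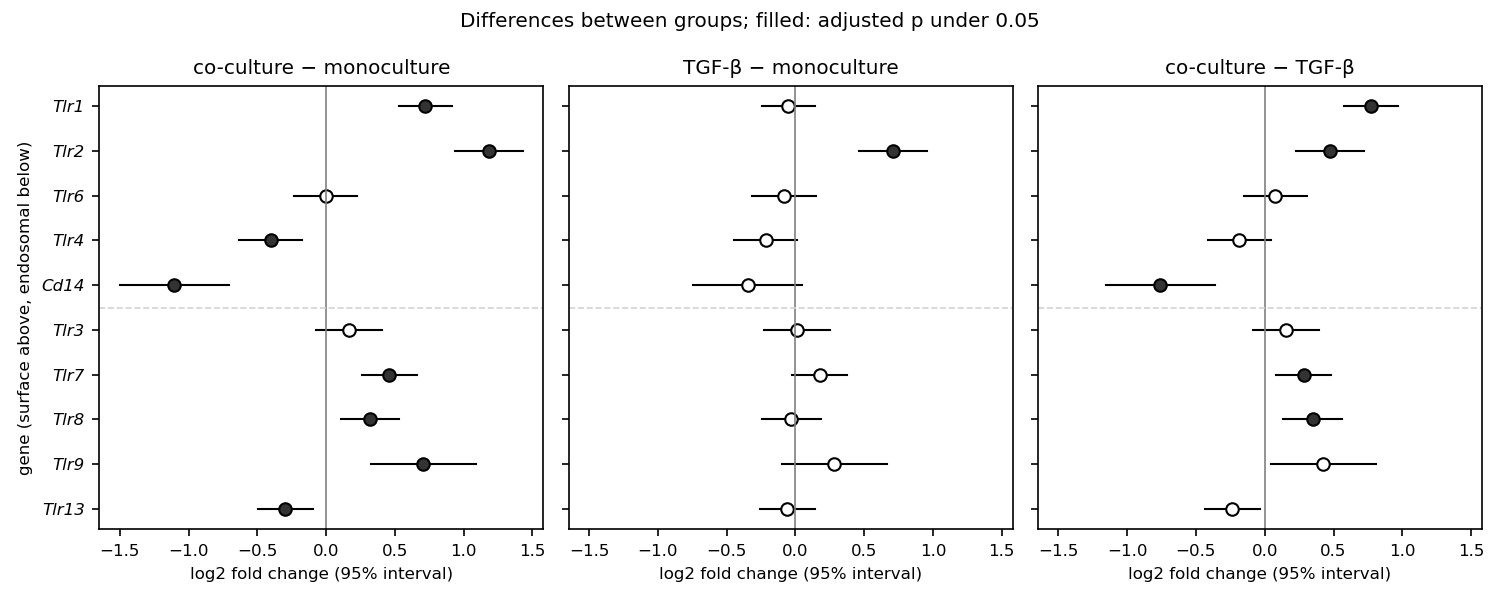
Log2 differences of the 10 genes for the 3 contrasts, with 95% intervals, surface genes above the dashed line and endosomal genes below. Filled points have an adjusted p under 0.05: 8 of 10 for co-culture against monoculture, 1 for TGF-β against monoculture and 5 for co-culture against TGF-β.

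With TGF-β, 1 of the 10 genes was called, where 2.52% of all genes tested were (1.13% higher and 1.39% lower). Among genes at or above the level of Tlr9 that share was 3.52%. The 2.52% was 1.01, 1.51 and 5.75% without TGF-β 1, 2 and 3, 1.65 and 1.52% without monoculture 1 and 2, 1.22% without the filter and 5.55% with DESeq2, and the count among the 10 was 1 in each. The groups did not overlap for Tlr2, Tlr4 and Cd14, against 16.9% of all genes tested. The median difference was -0.04 over the 10 genes and -0.01 over all tested. Against TGF-β, 4 of the 10 genes rose and 1 fell in co-culture, where 25.3% of genes were called (13.4% higher and 11.9% lower), or 29.8% at matched level. Without co-culture 1, co-culture 3 or TGF-β 2, 3 genes were called in that contrast. Since the contrasts against monoculture share its libraries, their values are given side by side and no overlap between them is read.

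Levels of different genes are compared per kilobase of merged exon. In co-culture Tlr13 (7227 ± 300.3 normalized counts per kb, mean ± SD, n = 3) and Cd14 (7084 ± 2358) overlapped at the top. Tlr7 (3616 ± 184) came next, and Tlr8 (2829 ± 265) overlapped with Tlr2 (2290.2 ± 370.0), as did Tlr2 with Tlr4 (1988 ± 254). Below them came Tlr1 (1020.1 ± 44.7), Tlr6 (332 ± 5.51), Tlr9 (301 ± 9.36) and Tlr3 (273 ± 13.8), each without overlap with the next.

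With TGF-β the order began with Cd14 (11630.0 ± 1047), Tlr13 (8522 ± 581) and Tlr7 (2979 ± 352), and Tlr4 (2259 ± 252) overlapped with Tlr8 (2225 ± 255). Then came Tlr2 (1634 ± 154), Tlr1 (596 ± 28.8) and Tlr6 (316 ± 38.2), and Tlr3 (246 ± 28.3) overlapped with Tlr9 (231 ± 71.5). In monoculture Cd14 (14745 ± 488) and Tlr13 (8896 ± 866) led, and Tlr7 (2630.5 ± 174) overlapped with Tlr4 (2617 ± 179). Tlr8 (2265 ± 133), Tlr2 (997 ± 63.0), Tlr1 (619 ± 50.0), Tlr6 (333 ± 15.0), Tlr3 (244 ± 20.8) and Tlr9 (184 ± 15.4) followed without overlap between neighbours. Cd14 thus led by its mean in both groups without neurons, and Tlr9 ranked above Tlr3 in co-culture and below it in the other groups, although the 2 genes overlapped in the TGF-β libraries.

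**Figure D4:**
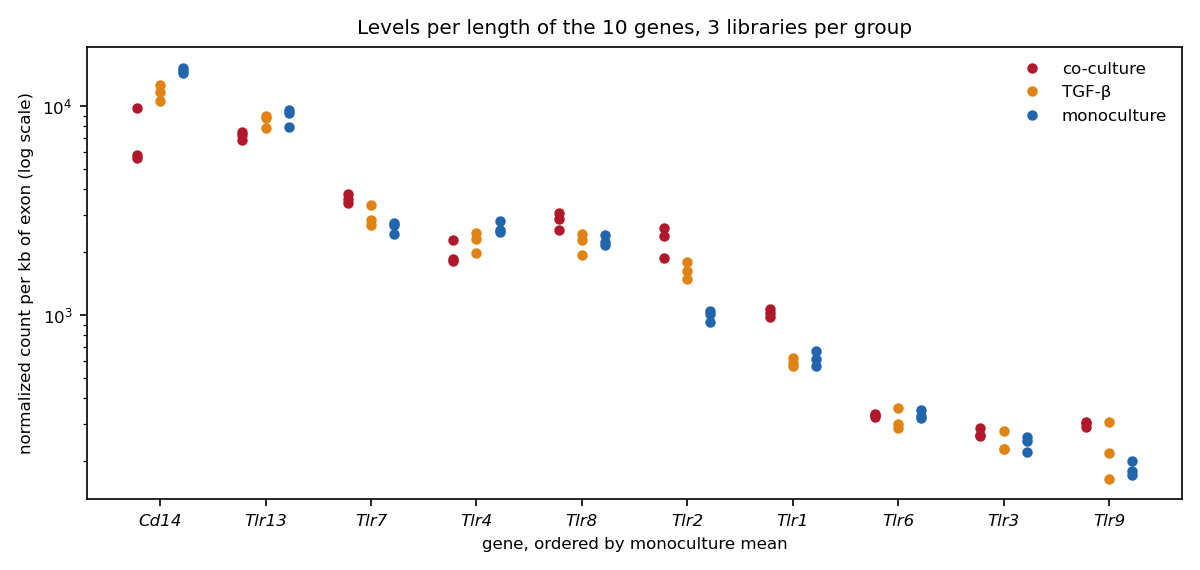
Level of each gene per kilobase of merged exon on a log axis, 1 point per library, ordered by the monoculture mean. Cd14 and Tlr13 stand highest in all groups, and Tlr6, Tlr3 and Tlr9 lie lowest, between 165 and 359.5 normalized counts per kb.

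The summed level of the 5 endosomal receptor genes was 13473 to 14740.1 normalized counts per kb in co-culture, 13378 to 15266.5 under TGF-β and 12995.5 to 14833.5 in monoculture. These ranges overlapped although 4 of the 5 genes were called in co-culture. The composition differed instead. Tlr13 made up 49.9 to 51.3% of the endosomal sum in co-culture, 58.6 to 62.8% under TGF-β and 60.9 to 64.4% in monoculture. Tlr7 over Tlr13 was 0.478 to 0.526 in co-culture, 0.326 to 0.377 under TGF-β and 0.282 to 0.308 in monoculture, with no overlap between any of the groups.

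The 4 surface Toll-like receptor genes summed to 5556 to 5776 normalized counts per kb in co-culture, 4379 to 5058 under TGF-β and 4466 to 4764 in monoculture. The ratio of the endosomal to the surface sum was 2.43 to 2.65 in co-culture, 2.80 to 3.05 under TGF-β and 2.91 to 3.32 in monoculture, so co-culture lay below the other groups. Without Tlr13 the ratio was 1.18 to 1.30 in co-culture, 1.04 to 1.26 under TGF-β and 1.11 to 1.26 in monoculture, and all groups overlapped.

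The other mouse Toll-like receptor genes were low. Tlr5, the flagellin receptor, had 259.9, 266 and 362 normalized counts in co-culture, 198, 203 and 241 with TGF-β, and 143, 199 and 161 in monoculture. It rose by 0.78 ± 0.20 (log2) over monoculture (limma adjusted p = 0.00852), and the TGF-β libraries overlapped with monoculture. Tlr12, which in mice recognises a protozoan profilin together with Tlr11, had 72 reads over the co-culture libraries, 2 with TGF-β and 0 in monoculture, too few to be tested. Tlr11 had 5 reads, all in monoculture 2.

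The counts called in the pathway lists below stand beside 30.8% of all genes tested for co-culture against monoculture and 2.52% for TGF-β against monoculture. Accessory and ligand-binding genes went both ways in co-culture: of 18, 8 rose and 6 fell (77.8% called), with a median log2 difference of 0.06. Ly96, the subunit of Tlr4 that binds endotoxin, gave -0.17 ± 0.12 (95% interval -0.43 to 0.09; limma adjusted p = 0.337). Lbp, the secreted protein that brings endotoxin to Cd14, rose by 2.66 ± 0.43 (limma adjusted p = 2.77e-04). Ly86, which pairs with the Tlr4-like protein Cd180, averaged 9268 ± 397 normalized counts in co-culture, 6012 ± 469.9 with TGF-β and 4885 ± 199 in monoculture (n = 3 each). Ly86 rose by 0.92 ± 0.08 (limma adjusted p = 7.63e-07), while its partner Cd180 fell by 0.48 ± 0.09 (limma adjusted p = 6.23e-04). The scavenger receptor Cd36, a helper of Tlr2 and Tlr6, averaged 34454 ± 8684 in co-culture, 222224 ± 31479 with TGF-β and 302928 ± 28955 in monoculture. It fell by 3.16 ± 0.16, and the galactose-binding lectin Lgals3 fell by 2.01 ± 0.13. Lgmn, a protease that cleaves endosomal receptors such as Tlr9, rose by 1.18 ± 0.09 and the lysosomal nucleoside transporter Slc29a3 by 1.09 ± 0.09, each at limma adjusted p of at most 3.06e-07. With TGF-β limma called 0 of the 18, edgeR 0 and DESeq2 2, and 9 had an unadjusted limma p under 0.05.

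Of 12 genes for folding and trafficking of the receptors, 3 rose and 1 fell in co-culture (median 0.05), and the 33.3% called is near the 30.8% of all genes. Unc93b1, the chaperone that carries the endosomal receptors out of the endoplasmic reticulum, averaged 41912 ± 1143 normalized counts in co-culture, 32344 ± 1141 with TGF-β and 31393 ± 2898 in monoculture. Co-culture did not overlap with the other groups. Unc93b1 rose by 0.42 ± 0.08 over monoculture (limma adjusted p = 0.00153) and by 0.37 ± 0.08 over TGF-β (limma adjusted p = 0.00465). Cnpy3, a co-chaperone, rose by 0.25 ± 0.08 (limma adjusted p = 0.0238), and Hsp90b1, the chaperone it works with, gave 0.03 ± 0.09 (limma adjusted p = 0.857). Syngr1 rose by 0.69 ± 0.09 in co-culture and by 0.39 ± 0.09 with TGF-β. The gene listed as 5430435G22Rik, now Rab7b, a small GTPase of late endosomes, fell by 1.13 ± 0.09 (limma adjusted p = 3.56e-07).

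Among 27 adaptors and proximal kinases, 8 rose and 6 fell in co-culture (51.9% called, median 0.08). Myd88 gave 0.18 ± 0.08 (95% interval 0.00 to 0.36; limma adjusted p = 0.119) and Tirap -0.16 ± 0.10 (limma adjusted p = 0.252), so neither adaptor of the Myd88 branch was called against monoculture. Against TGF-β, Myd88 was higher in co-culture by 0.34 ± 0.08 (limma adjusted p = 0.00712). Of the other branch, Ticam1 fell by 0.68 ± 0.10 (limma adjusted p = 8.77e-05) and its bridging adaptor Ticam2 rose by 0.52 ± 0.12 (limma adjusted p = 0.00475). Pik3ap1, an adaptor to phosphoinositide 3-kinase, and Ikbkg, the regulatory subunit of the IκB kinase, fell by 0.88 ± 0.08 and 0.81 ± 0.07 in co-culture. They were the 2 of the 27 called with TGF-β, where they fell by 0.49 ± 0.08 and 0.31 ± 0.07 (limma adjusted p = 0.00501 and 0.0458). Tab2, a partner of the kinase Map3k7, rose by 0.53 ± 0.08.

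Of 12 transcription factor genes, 3 rose and 6 fell in co-culture (75.0% called, median -0.20). With TGF-β limma, edgeR and DESeq2 each called 0 of them, and 2 had an unadjusted limma p under 0.05. Irf7, which drives type I interferon downstream of Tlr7 and Tlr9, had 341, 302 and 357 normalized counts in co-culture, 1129, 1176 and 1177 with TGF-β, and 1387, 1264 and 1924 in monoculture. It fell by 2.14 ± 0.15 (limma adjusted p = 7.26e-08) without overlap, while the receptor genes Tlr7 and Tlr9 rose. Irf5 fell by 0.48 ± 0.08 and Relb by 0.49 ± 0.11, and Rel, another NF-kappaB subunit, rose by 0.36 ± 0.09. Of 16 negative regulators 0 rose and 6 fell (median -0.22) by limma, edgeR and DESeq2, with 0 and 8 at an unadjusted limma p under 0.05. Counted in either direction, the 37.5% called is near the 30.8% of all genes tested. By direction, 37.5% fell and 0% rose, against 15.0% and 15.9% of all genes tested. Among the 6 were the inhibitor Nfkbia, the deubiquitinase Otulin and the ubiquitin-binding Tnip1. Il1rl1, the interleukin-33 receptor, fell by 5.14 ± 0.14, and it was also the 1 regulator called with TGF-β, at -1.53 ± 0.14.

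Of 18 response genes tested, 5 rose and 9 fell in co-culture (median -0.52), and 15 passed the filter outside co-culture. The 3 others, Il1a, Il1b and Ccl5, passed it with co-culture libraries counted. Il1b, interleukin-1 beta, had 299.7, 270.4 and 219.9 normalized counts in co-culture, 3.01, 10.9 and 18.2 with TGF-β and 0 in each monoculture library. Its co-culture mean was at least 74.2-fold higher, taken against a floor of 3 reads in each monoculture library. The median of the list is the same with Il1b at that bound, as it must be, since Il1b lies above the median either way. Traf1, a signalling adaptor induced by NF-kappaB, averaged 100.2 ± 18.0 in co-culture, 802 ± 105 with TGF-β and 1130.4 ± 200.2 in monoculture and fell by 3.37 ± 0.18. Il10, the anti-inflammatory cytokine, fell by 2.16 ± 0.23 and the chemokine Ccl3 by 0.98 ± 0.11 in co-culture. Tnf fell by 0.76 ± 0.14 there. With TGF-β limma called 1 of the 18, Il10, at -0.97 ± 0.23 (limma adjusted p = 0.0434). In that contrast edgeR called 1 gene higher and 0 lower, and DESeq2 2 higher and 4 lower. An unadjusted limma p under 0.05 was found for 9 of the 18. The fibroblast markers given above were higher in the same co-culture libraries, and their part in these lists was not tested.

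**Figure D5:**
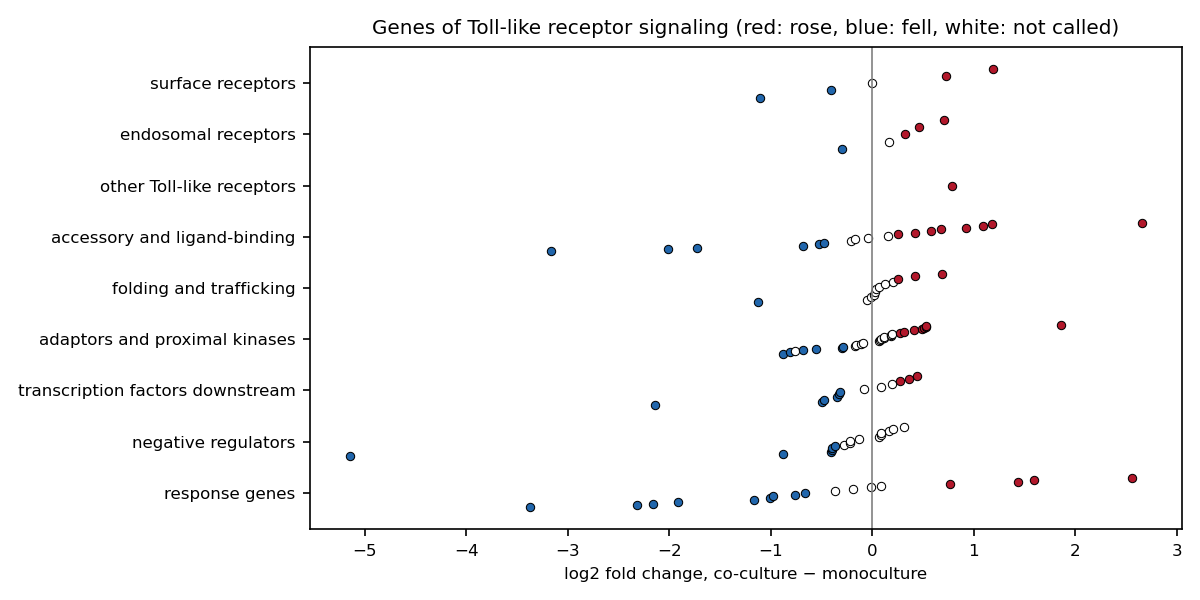
Log2 difference between co-culture and monoculture of each tested gene of the receptor and pathway lists, 1 point per gene (red rose, blue fell, white not called). Il1b, at 0 in monoculture, is left out. The negative regulators hold no red point, and the list of other Toll-like receptors holds Tlr5 alone, in red. Every other list holds both red and blue points.

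The genes whose log2 levels followed each receptor gene most closely over the 9 libraries were found by the root mean square difference after centring, among 11561 genes with a mean of at least 100. Tlr1 lay closest to Upf3b (0.0628), a factor of nonsense-mediated decay, and to the transcription factor Klf7 (0.0715). Tlr2 lay closest to Inpp4b (0.110), a phosphoinositide phosphatase, and to the chemokine Cxcl16 (0.112). Cd14 lay closest to Olfm1 (0.119) and Cgnl1 (0.122), and Tlr4 to Ssr3 (0.0630) and Efhd2 (0.0694). In endosomes the nearest genes were Sypl (0.0449) and Mef2a (0.0522) for Tlr7, Pcmtd1 (0.0557) and Fbxo11 (0.0599) for Tlr8, Bora (0.122) and Cenpf (0.129) for Tlr9, and Fam118a (0.0371) and Tmx4 (0.0396) for Tlr13. Tlr6 and Tlr3, which varied least, lay nearest to Mbtps2 (0.0406) and Casd1 (0.0461). Among the 10 genes themselves the nearest pairs were Tlr3 with Tlr6 (0.0998) and Tlr4 with Tlr13 (0.112). The 9 points share libraries, depth and groups, so these values only describe likeness.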

How the data were processed

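RNA of 9 sorted macrophage samples was made into libraries from 10 ng with the SMART-Seq Stranded chemistry, per the labels' protocols. bcl2fastq 2.20, STAR 2.7.3, DESeq2 1.24.0, R 3.6.1 and the genome build mm10 are named, without role or order, per the submitters' processing notes. The counting program, its strand setting, the annotation and any filter are not given in the sources used here. The authors deposited 1 signal value per gene and library. It is a read count over 1 size factor per library, since 100% of values came out as whole reads within 0.05.

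From these, log2 of the value plus 10 was tested with limma 3.58.1 (trend, robust empirical Bayes, R 4.3.3) in 16328 genes with at least 10 in at least 3 libraries. All 9 libraries entered 1 fit by group. P-values were adjusted by Benjamini-Hochberg over these genes; "rose", "fell" and "called" mean adjusted p under 0.05. P-values cover the spread between 3 libraries a group, and fold changes on this scale understate the change of low genes. The alternatives were pseudocounts of 1 and 50, no filter, at least 50 in 3 libraries, quantile normalization, edgeR 4.0.16 (TMM) and DESeq2 1.42.0 on the recovered reads, only the 2 groups compared, a replicate block, and leaving out each library. On simulated data the test recovered 50.7% of log2 changes of 0.5 for co-culture against monoculture. It recovered 32.4% for TGF-β against monoculture and 44.1% for co-culture against TGF-β. For changes of 1 the shares were 83.6, 78 and 79.7%, with 10 to 12 false calls among 16328 genes. A gene not called may thus still differ by a small amount.

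GENCODE M21 gave exon lengths and coordinates. The genes and lists were chosen with earlier results of these data known. Of the pathway lists, the text names a fixed set of 13 genes and, per list, the 4 of smallest p for co-culture and the 2 for TGF-β against monoculture. Tnf, Lbp, Il1a, Ccl5 and single cell type markers were named after their values were seen. Some single genes of the cell type marker lists are not reported here, though the summed levels and counts of those lists include them.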

Additional observations from a re-analysis of the deposited data

How the results depend on the processing

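Over the 10 genes and 18 alternatives per contrast, 167 of 180 values for co-culture against monoculture, 173 for TGF-β against monoculture and 166 for co-culture against TGF-β kept their direction and side of the threshold. Some runs could change the call but not the direction. These are the 2 groups alone, the replicate block, and leaving out a library of the group not compared. Tlr1, Tlr2, Cd14, Tlr7 and Tlr9 kept their call in co-culture against monoculture in all 18 alternatives. Genes called for TGF-β against monoculture numbered 412, and 907 with DESeq2 on recovered reads; leaving out 1 library gave 165 to 939, and the cause was not tested. Leaving out 1 library gave 5 to 8 of the 10 genes for co-culture against monoculture (8 with all) and 3 to 6 against TGF-β (5 with all). Directions reversed only where no call was made. Leaving out 1 library gave -0.029 to 0.032 for Tlr6 in co-culture against monoculture. For TGF-β against monoculture it gave -0.11 to 0.0083 for Tlr1, -0.082 to 0.060 for Tlr3 and -0.10 to 0.063 for Tlr8. Quantile normalization took the last 2 to -0.023 and 0.0019. With a replicate block 4926, 397 and 3956 genes were called, against 5033, 412 and 4128 without, and 8, 1 and 5 of the 10 genes were called both ways. Same-numbered libraries correlated at -0.147 to 0.372, and not every library correlated best with its own number. Leaving out a library also lowers the degrees of freedom. Tlr9 had 263 to 2916 reads a library, the fewest of the 10, so depth limits the other 9 less.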

Other observations

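Tlr7, Tlr8 and Tlr13 lie on the X chromosome, and the libraries numbered 1 differed from the others in sex-linked reads. Xist, the RNA of the inactive X, had 222, 9.77 and 3.25 normalized counts in co-culture 1, TGF-β 1 and monoculture 1, against 29030.3 to 89509 in the other 6 libraries. The Y-linked gene Ddx3y had 10040.0, 8549 and 8547 in the same 3 libraries. It had 57.8 and 58.5 in co-culture 2 and 3, and 0 in the other 4. Tlr7 was highest in library 1 of each group, with 15559, 13780.0 and 11294.5 normalized counts. Tlr8 was highest in library 1 with TGF-β and in monoculture and second in co-culture. Tlr13 was highest in library 1 with TGF-β and second in the other groups. The autosomal Tlr6 was also highest in library 1 of each group, with 1257, 1340.0 and 1305, and the autosomal Tlr3 in library 1 of co-culture and TGF-β. Of the other autosomal genes, Tlr2 was highest in library 1 of co-culture alone, Tlr4 of TGF-β alone and Cd14 of monoculture alone. Tlr1 and Tlr9 were highest in library 1 of no group. No test was made of these values.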
